A study of Mus musculus with 6 samples.

Results

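The ATP-binding cassette (ABC) transporter family was examined in 2 mouse mammary tumour lines, J110 and SSM3. Members were the protein-coding genes whose symbol begins with Abc, followed by a subfamily letter from a to g, a number and at most an a or b. This rule found 50 of the 52636 genes counted. RNAseq from the 3′ end of polyadenylated transcripts was performed on 3 biological replicates of each line. In the mouse model behind J110, the MMTV LTR drives a transgene of AIB1, a steroid receptor coactivator, and the line was grown with FBS, insulin and hydrocortisone. SSM3 cells came from mammary tumours of 129SvEv mice, and were grown with more FBS and more CO2, with Hepes, insulin, hydrocortisone, L-glutamine, β-mercaptoethanol and holo-transferrin. The line and the culture conditions differed together and cannot be told apart, and no mouse strain is given for J110 in the sources used here. Whether either line is a single clone is not given in the sources used here.

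ABC proteins share a nucleotide-binding domain that hydrolyses ATP, and most of them use it to move lipids, drugs, conjugates, peptides or metabolites across a membrane. Members of subfamilies B, C and G include the pumps known for multidrug resistance in breast cancer, subfamily A members mostly move lipids, and subfamily D members import fatty acids into peroxisomes or act in lysosomes. Members of subfamilies E and F have no transmembrane part and act in translation. In the mammary gland, Abcg2 is known for secreting riboflavin into milk.

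Total counts ranged from 4200785 to 5416305 per library, and a count of 3, taken as the floor of detection, corresponded to between 0.578 and 0.668 CPM, the count scaled to library size. Intervals and floors cover counting error only. Genes counted almost only in the opposite line left stray counts, and 2 libraries stood apart in these. J110 replicate 3 had stray counts on 27 of 28 genes, summing to 0.271% of what the opposite line held, and SSM3 replicate 2 on 17 of 17, summing to 0.357%. The remaining libraries lay between 0.0921% and 0.159%. Ncoa3, which encodes AIB1, had 110, 106 and 102 counts in J110 and 181, 199 and 186 in SSM3, although Sulf2, which shares exons with it, was counted above Ncoa3 in all 6 libraries. Ncoa3 therefore does not check the labels. Of 5 epithelial markers, 4 were higher and 1 was lower in SSM3. Krt8 averaged 1275 ± 37.9 CPM (SD, n = 3) in J110 against 2270 ± 202 CPM (SD, n = 3) in SSM3, and Krt18, the marker that was lower, averaged 1430 ± 18.1 CPM (SD, n = 3) against 970.0 ± 37.3 CPM (SD, n = 3). Epcam had 2, 1 and 7 counts in J110 and 2376, 2404 and 2412 in SSM3, and Cdh1 had 21, 11 and 28 against 6019, 6369 and 7179.

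Of the 50 members, 24 had enough counts for a comparison of the lines by edgeR's quasi-likelihood method, and 22 of these were called at an adjusted p below 0.05, against 77.9% of all 12284 genes tested. In SSM3, 12 members were higher, where the share over all genes was 38.6%, and 10 were lower, where it was 39.2%. Scaling by library size alone gave 13 members higher and 9 lower, and over all genes it turned the balance from 4746 higher and 4820 lower to 5373 higher and 4140 lower. A change of at least 4-fold was found for 10 members, 4 of them higher and 6 lower in SSM3. Over all genes tested 21.7% changed by this much, 1233 genes higher and 1436 lower. For 21 of the 24 members the ranges of the lines did not overlap, as for 79.6% of all genes tested. The median size of the log2 fold change was 1.38 over the members and 0.84 over all genes tested, and the median signed log2 fold change was 0.32 and -0.014. A member that passed the filter only through the line where it was high was more likely to differ, so these counts are a description. The summed level of the family was 880 ± 16.2 CPM (SD, n = 3) in J110 against 730 ± 18.0 CPM (SD, n = 3) in SSM3, while the summed CPM of all genes tested averaged 1059540 and 937966. The family total joins roles whose sums differed in opposite directions. The soluble members had summed levels of 419 ± 2.93 CPM (SD, n = 3) and 274 ± 10.9 CPM (SD, n = 3), and the efflux pumps were also lower in SSM3. The sums of sterol, vesicle, mitochondrial and peroxisomal members were higher in every SSM3 library than in any J110 library. The vesicle and mitochondrial sums include Abca3, Abcb6 and Abcb10, whose values are uncertain because of overlapping genes. In such bulk samples, fewer cells that express a gene and less RNA of it per cell cannot be told apart.

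**Figure D1:**
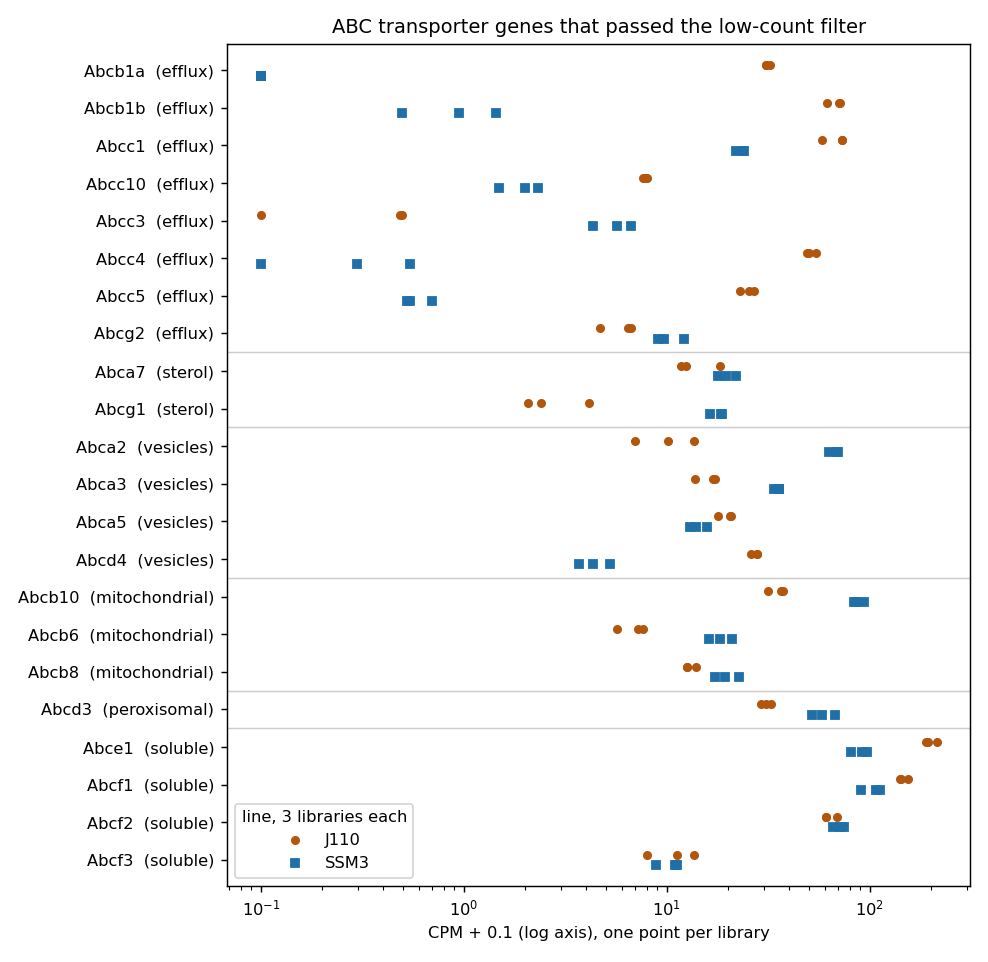
CPM plus 0.1 of 22 of the 24 members tested (log axis), with 1 point for each of the 3 libraries of J110 (circles) and SSM3 (squares), grouped by role. Abcb1a, Abcb1b, Abcc4 and Abcc5 lie between 22.7 and 71.3 CPM in J110 and between 0 and 1.34 CPM in SSM3, while the libraries of the lines overlap for Abca7, Abcf2 and Abcf3.

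The drug and conjugate efflux pumps differed in both directions. All 8 of the 9 listed pumps that were tested differed, with 6 lower and 2 higher in SSM3, where 77.9% of all genes tested were called, 39.2% lower and 38.6% higher. Their summed level was 257 ± 11.4 CPM (SD, n = 3) in J110 against 42.2 ± 1.95 CPM (SD, n = 3) in SSM3. Abcb1a, Abcb1b, Abcc3, Abcc4, Abcc5 and Abcc10 had fewer than 10 counts in at least 1 library of the line where they were lower. They passed the filter through the line where they were high, which favours a difference between the lines. Abcc1 and Abcg2 were counted above this in every library of both lines.

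Abcb1a and Abcb1b encode the mouse P-glycoproteins, which pump many unrelated hydrophobic drugs out of the cell. They lie next to each other on chromosome 5 of mm10, Abcb1a (ENSMUSG00000040584) from 8660077 to 8748575 and Abcb1b (ENSMUSG00000028970) from 8798147 to 8866315, both on the forward strand. Abcb1a had 160, 163 and 148 counts in J110 and no count in any library of SSM3. It was at least 46.9-fold lower in SSM3, as set by a floor of 3 counts per library (adjusted p = 2.21e-11 by edgeR). Abcb1b had 370, 309 and 338 counts in J110 and 6, 4 and 2 in SSM3. All 3 libraries of J110 were far above those of SSM3 for both genes. Abcb1b averaged 67.7 ± 5.68 CPM (SD, n = 3) in J110 against 0.861 ± 0.469 CPM (SD, n = 3) in SSM3, log2 fold change -6.28 ± 0.22 (SE, adjusted p = 1.85e-13 by edgeR). Abcb4, the phosphatidylcholine exporter of bile and the next gene at this locus, had at most 2 counts in any library. In the last 500 bases of their transcripts, where the reads of this kit fall, 9.31% of the stretches of 75 bases of Abcb1b also occurred in Abcb1a or Abcb4, and none of those of Abcb1a occurred in another gene.

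Abcc4 and Abcc5, which export cyclic nucleotides and, for Abcc4, prostaglandins, followed the same pattern. Abcc4 (ENSMUSG00000032849, chromosome 14 from 118482692 to 118706219) had 259, 274 and 235 counts in J110 and 2, 0 and 1 in SSM3. The ratio of J110 to SSM3 was 242 (exact 95% counting interval from 82.6 to 1177), with an adjusted p of 4.47e-13 by edgeR. Its fitted log2 fold change was -7.75, and -8.64 when SSM3 replicate 1 was left out. Abcc5 (ENSMUSG00000022822, chromosome 16 from 20331303 to 20426394) had 131, 135 and 109 counts in J110 and 2, 2 and 3 in SSM3. Its log2 fold change was -5.59 ± 0.28 (SE, adjusted p = 1.75e-11 by edgeR). Both genes were at the floor in every SSM3 library, and SSM3 replicate 2 did not hold more of their counts than the other SSM3 libraries.

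Abcc1, the first multidrug resistance-associated protein, which exports glutathione conjugates and drugs, was present in both lines. It had 377, 370 and 279 counts in J110 and 106, 113 and 110 in SSM3. The levels were 68.0 ± 8.50 CPM and 23.2 ± 1.12 CPM (SD, n = 3 each), log2 fold change -1.56 ± 0.12 (SE, adjusted p = 3.28e-09 by edgeR). Abcc10, a related pump, fell from 7.71 ± 0.194 CPM to 1.84 ± 0.421 CPM (SD, n = 3 each), with 41, 38 and 37 counts in J110 and 10, 9 and 7 in SSM3. Dlk2 shares 51 exon bases with Abcc10 on the opposite strand, with 55, 61 and 54 counts for J110 and 7, 6 and 5 for SSM3, so the value of Abcc10 is uncertain.

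Abcc3 and Abcg2 went the other way. Abcc3 (ENSMUSG00000020865), which exports glucuronides and bile acids, had 2, 2 and 0 counts in J110 and 25, 20 and 33 in SSM3. The libraries did not overlap, and the ratio of SSM3 to J110 was 20.6 (exact 95% counting interval from 7.74 to 77.5), with an adjusted p of 9.27e-07 by edgeR. Abcg2 (ENSMUSG00000029802), the breast cancer resistance protein, had 34, 32 and 22 counts in J110 and 43, 57 and 45 in SSM3. Every SSM3 library was above every J110 library in CPM. The log2 fold change of Abcg2 was 0.80 ± 0.23 (SE, adjusted p = 0.00438 by edgeR), and without J110 replicate 3 and SSM3 replicate 2 it was 0.52 with an adjusted p of 0.0792. Abcc2, the pump of the bile canaliculus, had at most 1 count in any library.

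Endothelial cells are also known for Abcb1a and Abcg2, so their markers were read beside the pumps. The study's flow cytometry gated out CD31, CD45 and TER119, while the methods give no sort for the cells that were sequenced. Of Pecam1, Kdr, Tie1 and Cdh5, 1 of 4 was tested and called, and their summed level lay between 158 and 181 CPM in J110 and between 0 and 0.425 CPM in SSM3. This level was nearly all Cdh5, with 836, 790 and 856 counts in J110. Pecam1 had 3, 0 and 4 counts in J110, Kdr 8, 11 and 6, and Tie1 none.

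The stretches upstream of the starts of Abcb1b, Abcc4 and Abcc5, pumps of J110 with a RefSeq start at the start of the gene in the annotation used here, are shown beside that of Abca2, a lipid transporter higher in SSM3 whose RefSeq start lies 104 bases upstream of it, so that the genes at both ends of the range can be compared. RefSeq lists another start for Abcc4, at 118676931 inside the gene, which is not shown. Each is the 160 bases that end at the base before the RefSeq start (build GRCm38.p6, which is mm10), 5′ to 3′ on the gene's strand. Capitals mark a match, on either strand, to any of 7 motifs, the GC box GGGCGG, the CCAAT box CCAAT, the TATA box TATAAA, the E-box CACGTG, the AP-1 motif TGANTCA, the cAMP response element TGACGTCA and the DR4 element, which is AGGTCA repeated after a gap of 4 bases. None of these motifs contains another.
Abcb1b, chr5:8797987-8798146, forward strand: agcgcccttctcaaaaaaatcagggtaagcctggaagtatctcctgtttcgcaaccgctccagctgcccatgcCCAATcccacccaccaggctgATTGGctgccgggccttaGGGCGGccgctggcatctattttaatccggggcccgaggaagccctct
Abcc4, chr14:118706220-118706379, reverse strand: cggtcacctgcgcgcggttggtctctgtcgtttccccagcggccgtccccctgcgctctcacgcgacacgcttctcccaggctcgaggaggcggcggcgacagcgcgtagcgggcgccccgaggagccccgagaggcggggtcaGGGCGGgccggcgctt
Abcc5, chr16:20426395-20426554, reverse strand: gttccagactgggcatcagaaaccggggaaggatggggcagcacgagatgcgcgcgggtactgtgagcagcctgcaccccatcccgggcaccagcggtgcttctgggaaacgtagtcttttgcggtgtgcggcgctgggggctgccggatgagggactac
Abca2, chr2:25428439-25428598, forward strand: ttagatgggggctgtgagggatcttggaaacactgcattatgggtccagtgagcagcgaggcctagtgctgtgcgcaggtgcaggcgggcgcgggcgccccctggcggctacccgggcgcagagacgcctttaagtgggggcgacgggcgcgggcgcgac

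The stretch of Abcb1b held a pair of CCAAT boxes, 1 on each strand, and a GC box, that of Abcc4 held a GC box, and those of Abcc5 and Abca2 held no match. GC content was 59.4% for Abcb1b, 75.6% for Abcc4, 65.0% for Abcc5 and 68.8% for Abca2, where the median over the same stretch of all 32851 RefSeq promoters was 53.8%. RefSeq promoters were matched for 38 of the 50 members, with 45 windows of 300 bases that run from 250 bases before the start to 50 after. A GC box was found in 46.7% of these windows and in 35.7% of all windows, and a CCAAT box in 35.6% and 37.4%. A TATA box was found in 15.6% of members' windows and 13.6% of all windows, an E-box in 13.3% and 7.15%, and a cAMP response element in 4.44% and 1.79%. The AP-1 motif was in no member's window and in 7.81% of all windows, and the DR4 element was in no member's window and in 0.0152% of all windows. The RefSeq start of Abcb1a lies 92986 bases upstream of the start of the gene in the annotation used here, and its window is not shown.

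**Figure D2:**
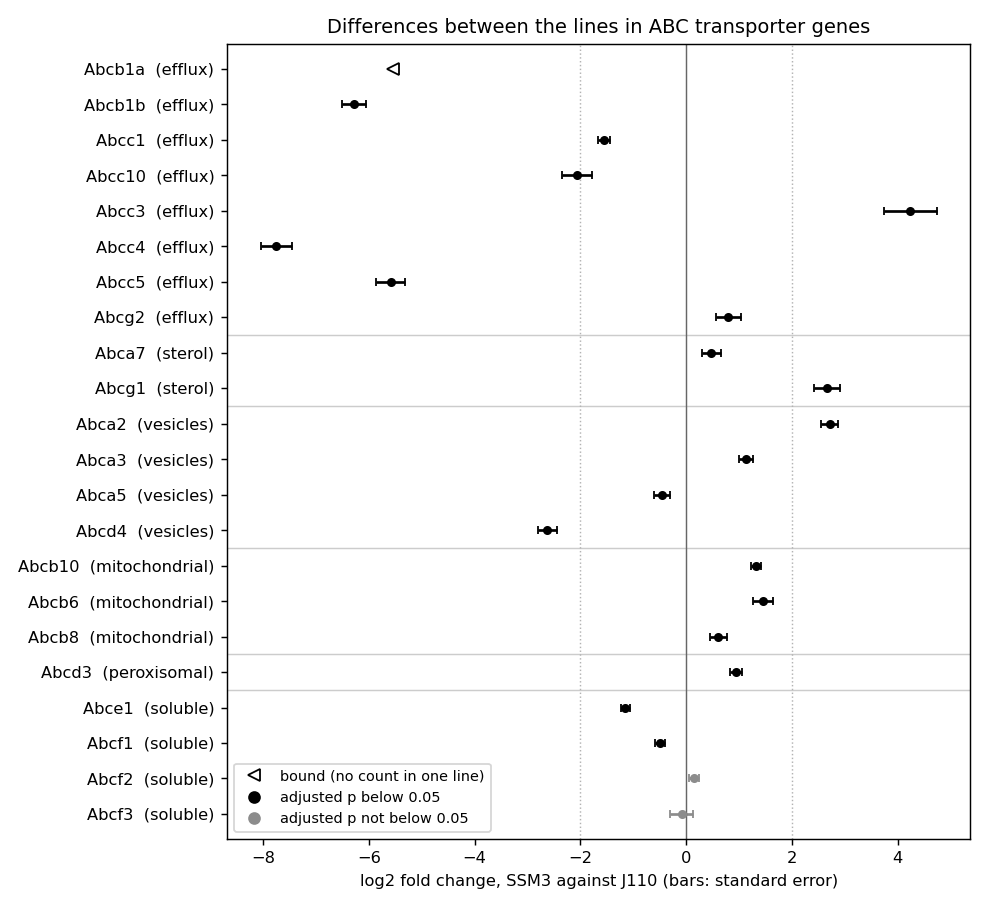
Log2 fold change, SSM3 against J110, of 22 of the 24 members tested, with bars for the standard error, black points for an adjusted p below 0.05, grey for the others, and an open triangle for Abcb1a, which is a bound. Dotted lines mark a 4-fold change, which 6 of the members shown exceeded towards J110 and 3 towards SSM3.

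Sterol and phospholipid exporters were few. Of the 7 listed genes, 2 were tested and both were higher in SSM3, as were 38.6% of all genes tested. Abcg1 (ENSMUSG00000024030, chromosome 17 from 31057675 to 31117988), which delivers cholesterol to high-density lipoprotein, had 21, 10 and 11 counts in J110 and 73, 87 and 94 in SSM3. The libraries did not overlap, and the level rose from 2.77 ± 1.12 CPM to 17.8 ± 1.35 CPM (SD, n = 3 each), log2 fold change 2.66 ± 0.24 (SE, adjusted p = 3.97e-08 by edgeR). Abca7, a phospholipid exporter related to Abca1, had 64, 92 and 56 counts in J110 and 87, 103 and 89 in SSM3. Its libraries overlapped, with J110 replicate 2 above SSM3 replicate 3, and the log2 fold change was 0.48 ± 0.18 (SE, adjusted p = 0.0236 by edgeR). The adjusted p of Abca7 was 0.112 when J110 replicate 1 was left out, 0.123 when J110 replicate 3 was, and 0.0986 when SSM3 replicate 2 was, with values from 0.00378 to 1 across the alternatives tried. Abca1, which loads cholesterol onto apolipoprotein A-I, had at most 1 count in any library, and the sterol exporters Abcg4, Abcg5 and Abcg8 had 2 counts or fewer in every library.

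Genes of sterol handling were listed beside these exporters. Of 15 genes, 13 were tested, 9 of them higher and 4 lower in SSM3, where 77.9% of all genes tested were called in either direction, with a median log2 fold change of 0.81. Nr1h3 and Soat1 passed the filter through the line where they were high, which favours a difference between the lines. Nr1h3, the liver X receptor alpha that induces Abca1 and Abcg1, had 0, 1 and 0 counts in J110 and 21, 22 and 19 in SSM3, a ratio of 65.5 (exact 95% counting interval from 11.3 to 2630). The only J110 count of Nr1h3 was in replicate 2, and the fitted log2 fold change was 5.57, or 7.41 when that library was left out, a value that then depends on the prior count. Soat1, which esterifies cholesterol for storage, had 1104, 1164 and 1219 counts in J110 and 2, 5 and 2 in SSM3, a log2 fold change of -8.46 (adjusted p = 7.90e-16). Npc1, which moves cholesterol out of lysosomes, was also lower in SSM3, with averages of 65.4 CPM for J110 and 12.8 CPM for SSM3 (adjusted p = 6.74e-11). Among the most counted genes, Srebf2, the master regulator of cholesterol synthesis, rose in SSM3 (log2 fold change 1.07) and Npc2, a partner of Npc1, was lower (log2 fold change -0.47). Macrophages are also known for Abca1 and Abcg1, and their markers were read beside these exporters. Of 6 markers 2 were tested, 1 lower in SSM3 and 1 not called, Ptprc and Adgre1 had no count in J110 and at most 2 in a library of SSM3, and the summed level of all 6 lay between 29.0 and 37.0 CPM in J110 and between 14.7 and 17.2 CPM in SSM3. Of 5 fibroblast markers 1 was tested, and their sum lay between 0.964 and 3.55 CPM in J110 and between 1336 and 1479 CPM in SSM3. The SSM3 level was all Dcn, the marker tested, with 0, 1 and 12 counts in J110 and 6643, 6698 and 6712 in SSM3, while Col1a2 and Lum had no count. Of 4 adipocyte markers 1 was tested, Fabp4, with 31, 34 and 29 counts in J110 and 0, 3 and 0 in SSM3, and Adipoq, Plin1 and Lep had no count. The part of these cell types in the results was not tested.

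**Figure D3:**
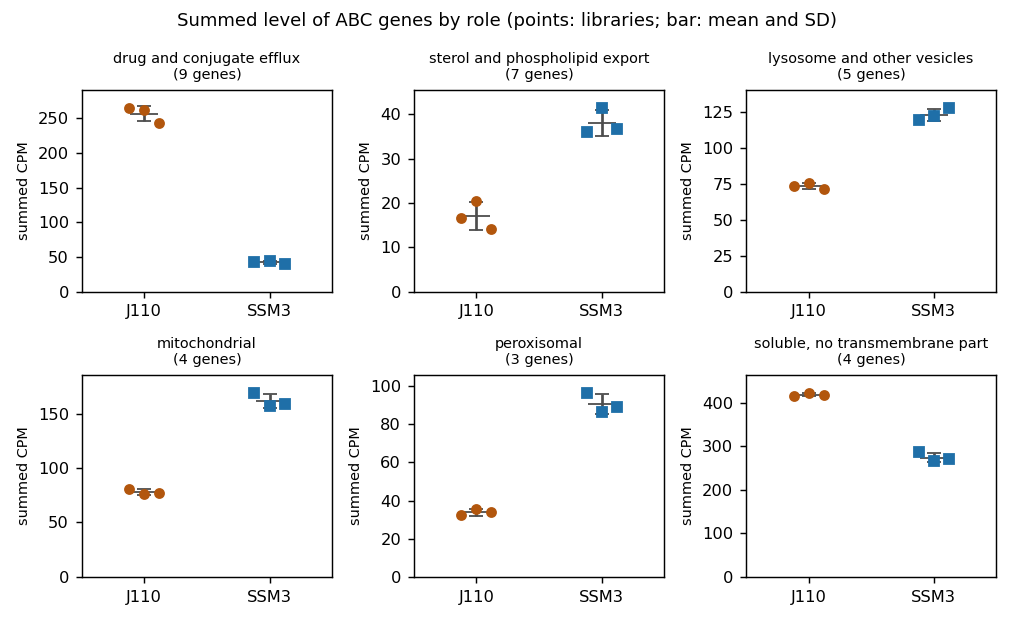
Summed CPM of all listed members of each role, with points for libraries and bars for the mean and SD of 3 libraries, each panel starting at 0. Efflux pumps sum to between 244 and 265 CPM in J110 and between 40.0 and 43.5 CPM in SSM3, while mitochondrial members sum to between 76.0 and 80.8 CPM in J110 and between 157 and 169 CPM in SSM3. The mitochondrial sum includes Abcb6 and Abcb10 and the vesicle sum includes Abca3, whose values are uncertain because of overlapping genes.

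Members of lysosomes and other vesicles moved in both directions. Of the 5 listed, 4 were tested, 2 higher and 2 lower in SSM3, where 38.6% and 39.2% of all genes tested were. Abca2 (ENSMUSG00000026944, chromosome 2 from 25428703 to 25448540), a lipid transporter of late endosomes and lysosomes, had 70, 51 and 33 counts in J110 and 282, 324 and 351 in SSM3. The spread of the J110 libraries was wider in proportion to their mean, and all of them lay below those of SSM3. The level of Abca2 was 10.2 ± 3.30 CPM (SD, n = 3) in J110 against 67.1 ± 3.80 CPM (SD, n = 3) in SSM3, log2 fold change 2.71 ± 0.16 (SE, adjusted p = 1.60e-10 by edgeR). Abca3, which loads surfactant lipids into lamellar bodies in the lung, had 71, 85 and 82 counts in J110 and 160, 158 and 178 in SSM3, on average 15.9 and 34.9 CPM. Counts of D330041H03Rik, on the opposite strand, were 74, 83 and 87 for J110 and 150, 153 and 164 for SSM3, and 93.4% of the 75-base stretches at the 3′ end of Abca3 occurred in it. The reads of these genes cannot be told apart, so the value of Abca3 is uncertain.

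Abcd4 (ENSMUSG00000021240, chromosome 12 from 84601464 to 84617413), which acts in the export of cobalamin from lysosomes, was the member of this role that fell most. It had 143, 140 and 124 counts in J110 and 19, 17 and 26 in SSM3, with no overlap and log2 fold change -2.63 ± 0.18 (SE, adjusted p = 1.02e-09 by edgeR). Abca5, a lysosomal member, had 92, 103 and 99 counts in J110 and 62, 61 and 79 in SSM3. Its log2 fold change of -0.46 (adjusted p = 0.0111) had an adjusted p of 0.0519 without SSM3 replicate 2 and 0.0910 with library size scaling only, with values from 0.00712 to 1 across the alternatives tried. Abcb9, a lysosomal peptide transporter, did not pass the filter, with 4, 2 and 4 counts in J110 and 14, 14 and 8 in SSM3.

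All 4 mitochondrial members were higher in SSM3, with no overlap between the lines and a median log2 fold change of 0.97. Over all genes tested 38.6% were higher and 79.6% had no overlap. Abcb10 (ENSMUSG00000031974), an inner membrane transporter needed for haem synthesis, had 188, 159 and 178 counts in J110 and 422, 392 and 428 in SSM3, log2 fold change 1.32 ± 0.098 (SE, adjusted p = 2.71e-09 by edgeR). Abcb6, a porphyrin transporter, had 29, 36 and 36 counts in J110 and 82, 98 and 81 in SSM3, log2 fold change 1.45 ± 0.19 (SE, adjusted p = 3.09e-06 by edgeR). Abcb8, also of the inner membrane, rose from 12.9 ± 0.738 CPM to 19.7 ± 2.78 CPM (SD, n = 3 each), a change of less than 2-fold. The values of Abcb10 and Abcb6 are uncertain. Gm45890 lies on the strand opposite to Abcb10, with 161, 136 and 139 counts for J110 and 366, 325 and 339 for SSM3, and Gm29253, on the strand of Abcb6, shares 82.1% of the 75-base stretches at the 3′ end of Abcb6 and had more counts than Abcb6 in every library.

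Genes of mitochondrial iron-sulfur and haem synthesis did not move in 1 direction. All 13 listed were tested, 6 were higher and 3 lower in SSM3, a share of 69.2% called against 77.9% of all genes tested, and the median log2 fold change was 0.23. The largest changes were in mitochondrial carriers. Slc25a39, a carrier of glutathione, rose from 133 to 646 CPM on average (log2 fold change 2.28, adjusted p = 6.65e-14), and Slc25a37, the iron importer mitoferrin, fell from 116 to 10.5 CPM (log2 fold change -3.47, adjusted p = 3.53e-13). Glrx5, a glutaredoxin of iron-sulfur assembly, had a log2 fold change of 0.0037 and Alad, an enzyme of haem synthesis, of -0.093, and neither passed the test. The sign of Glrx5 and Alad changed under some alternatives.

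Both peroxisomal members tested were higher in SSM3, as were 38.6% of all genes tested, and Abcd2, which was not tested, had at most 1 count in any library. Abcd3, which carries long and branched chain acyl groups, had 151, 164 and 148 counts in J110 and 303, 245 and 292 in SSM3, log2 fold change 0.94 ± 0.11 (SE, adjusted p = 1.22e-06 by edgeR). Other peroxisome genes moved in both directions, with 2 higher and 3 lower in SSM3 of the 7 tested of 8 listed, which is 71.4% called against 77.9% of all genes tested, and a median log2 fold change of -0.29. Pex19, the receptor that brings these transporters to the peroxisome, rose in SSM3 (log2 fold change 1.29, adjusted p = 1.35e-08). Hsd17b4, an enzyme of peroxisomal β-oxidation, was lower in SSM3 (log2 fold change -0.29, adjusted p = 0.0375). The call of Hsd17b4 was lost when 1 library was left out, for 4 of the 6 libraries, and with library size scaling only (log2 fold change -0.11, adjusted p = 0.397).

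The soluble members are not transporters. Of 4 tested, 2 were lower in SSM3, as were 39.2% of all genes tested, and 2 did not pass the test. Abce1 (ENSMUSG00000058355), which splits ribosomes after termination, had 1007, 1079 and 911 counts in J110 and 437, 432 and 407 in SSM3, log2 fold change -1.15 ± 0.088 (SE, adjusted p = 4.18e-09 by edgeR). Abcf1, which binds the initiation factor eIF2, had 735, 708 and 741 counts in J110 and 479, 425 and 563 in SSM3, a log2 fold change of -0.50 (adjusted p = 0.000111). In Abcf2 the libraries overlapped, with 358, 306 and 291 counts in J110 and 320, 352 and 331 in SSM3, and its log2 fold change was 0.15 (adjusted p = 0.141). Library size scaling only gave Abcf2 a log2 fold change of 0.33 with an adjusted p of 0.00590. Abcf3, a relative of the yeast translation regulator GCN20, had 58, 40 and 65 counts in J110 and 49, 41 and 56 in SSM3, log2 fold change -0.082 ± 0.22 (SE, adjusted p = 0.740 by edgeR), and its sign changed under 4 alternatives. Of 9 listed genes of ribosome recycling and initiation, 1 was higher and 5 were lower in SSM3, which is 66.7% called against 77.9% of all genes tested. Eif2s1 and Eif2s2, subunits of eIF2, were lower by -0.63 and -0.24 on the log2 scale, but with library size scaling only Eif2s2 had -0.064 and an adjusted p of 0.379. Hbs1l, a ribosome rescue factor, had a log2 fold change of 0.034 and did not pass the test (adjusted p = 0.767).

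**Figure D4:**
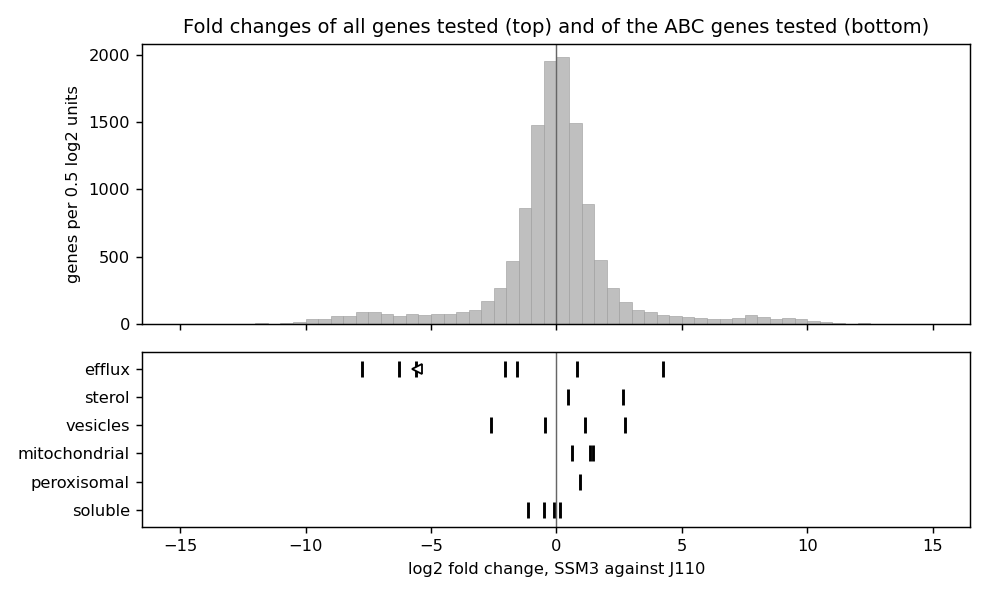
Top, histogram of the log2 fold change, SSM3 against J110, of all 12284 genes tested in bins of 0.5. Bottom, 22 of the 24 members tested by role, with a tick for each gene and an open triangle for the bound of Abcb1a. Efflux pumps spread from -7.75 to 4.24, and the 4 soluble members lie between -1.15 and 0.15.

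Genes of drug metabolism and their regulators were listed as partners of the efflux pumps. Some of the enzymes make conjugates that these pumps export. Of 19 genes, 14 were tested, 8 of them lower and 1 higher in SSM3, with a median log2 fold change of -0.84. The share called was 64.3%, below the 77.9% of all genes tested. The 4 genes with a difference of at least 4-fold follow. Each had fewer than 10 counts in every SSM3 library and passed the filter through J110, which favours a lower level in SSM3. Ugt1a6a, which forms glucuronides, had 396, 425 and 309 counts in J110 and 0, 2 and 0 in SSM3, a ratio of 535 (exact 95% counting interval from 148 to 4419). Both SSM3 counts of Ugt1a6a fell in replicate 2, a library with more stray counts than most. Ugt1a6a shares its 3′ exons with the other Ugt1a genes, so which of them was read is uncertain. Gstm1, which forms glutathione conjugates, had 74, 72 and 62 counts in J110 and 3, 0 and 0 in SSM3, a ratio of 65.6 (exact 95% counting interval from 22.1 to 321). All 3 SSM3 counts of Gstm1 came from replicate 1, and its fitted log2 fold change was -5.87, or -9.10 when that library was left out. For Ugt1a6a it was -8.82, or -11.5 when SSM3 replicate 2 was left out. With no count left in SSM3, such fitted values depend on the prior count and are no bound. Ephx1, an epoxide hydrolase, and Cyp1b1, a cytochrome P450 that also hydroxylates estradiol, had log2 fold changes of -5.76 and -4.49 (adjusted p = 1.03e-12 and 1.06e-10).

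Among regulators and glutathione enzymes, Nfe2l2, the transcription factor NRF2, had 1487, 1563 and 1357 counts in J110 and 468, 428 and 380 in SSM3, a log2 fold change of -1.70 (adjusted p = 1.28e-10). Gclc, the first enzyme of glutathione synthesis, was lower in SSM3 by -0.93 (adjusted p = 5.19e-08). Keap1, which holds NRF2 in check, had a log2 fold change of 0.12 and did not pass the test (adjusted p = 0.215), although library size scaling only gave 0.30 with an adjusted p of 0.00605.

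The rest of the family was little expressed. Of the 50 members, 23 had 3 counts or fewer in every library, and 13 of these had no count at all. Members with no count in any library included Abca4 and Abca12, known from retina and epidermis, and Abcc8, a sulfonylurea receptor. Abcc9, the other sulfonylurea receptor, had 1 count in all, and neither Kcnj8 nor Kcnj11, the pores of their potassium channels, had a count. Besides Abcb9, 2 members that were not tested passed 3 counts in a library. Abcb11, the bile salt export pump, had 1, 0 and 5 counts in J110 and none in SSM3, and Abca8b, a lipid transporter, had 2, 4 and 3 counts in J110 and 0, 1 and 0 in SSM3. These 3 were counted but too low to be tested. The 23 members at the floor were not detectable at this depth, which does not show that they are absent.

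Among ABC genes that carry other names, Tap1 and Tap2, which together move peptides into the endoplasmic reticulum for MHC class I, were both higher in SSM3. Tap1 had 58, 56 and 62 counts in J110 and 553, 561 and 651 in SSM3, a log2 fold change of 3.40 (adjusted p = 4.01e-14 by edgeR). Tap2 had 33, 26 and 15 counts in J110 and 92, 77 and 13 in SSM3, so SSM3 replicate 3 lay below all J110 libraries in counts. The log2 fold change of Tap2 was 1.40 (adjusted p = 0.0145), and it was 1.90 without SSM3 replicate 3 and 0.93 (adjusted p = 0.0969) without SSM3 replicate 1, with an adjusted p of up to 0.231 across the alternatives tried. Cftr, the chloride channel of this family, had 1 count in all.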

How the data were processed

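RNAseq libraries of J110 and SSM3 cells (n = 3 each, biological replicates per the paper) were made with the QuantSeq 3′ kit. The authors trimmed the reads with cutadapt (2.1), mapped them to mm10 with HISAT2 (2.0.4), counted them per gene with featureCounts of Subread (2.0.0), and deposited raw counts without normalisation. The strand setting and the handling of overlapping genes are not given in the sources used here. GENCODE M21 (GRCm38) gave symbols and mm10 coordinates for 99.6% of genes. Low counts were removed by filterByExpr, TMM set the scaling, and edgeR's quasi-likelihood test was fitted (edgeR 4.0.16, R 4.3.3), SSM3 against J110 over all 6 libraries, with Benjamini-Hochberg adjustment over all genes tested. The standard error was the log2 fold change divided by the square root of F. CPM values used TMM. The fit was tested on simulated data. The members and lists were chosen with earlier results of these data known. The naming rule took all members tested, with untested members above 3 counts, and of each partner list the 3 most counted genes and those with a 4-fold change. Genes counted almost only in the opposite line, for stray counts, had at least 200 CPM there and at most 10 counts per library in the line itself. Gcn1 was matched as Gcn1l1. Alternatives used RLE and library size scaling, other filters, glmTreat, DESeq2 (1.42.0), limma-voom (limma 3.58.1), a replicate block and fits without libraries. Replicates differed by more than sampling noise (chi-square per degree of freedom from 2.21 to 5.62). Protein features were not analysed here. Some members, partner genes and a line's genotype are not reported here.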

Additional observations from a re-analysis of the deposited data

How the results depend on the processing

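The 12 members higher and 10 lower in SSM3 stayed within 1.5 times under the alternatives, with 2 exceptions. A test for changes above 2-fold (glmTreat) left 6 members higher in SSM3, and 4272 genes called in place of 9566. Requiring 10 counts in every library removed Abcb1a, Abcb1b, Abcc3, Abcc4, Abcc5 and Abcc10 from the test, and left 5 members lower. Leaving out each library in turn gave from 11 to 13 members higher and from 9 to 10 lower, and without both J110 replicate 3 and SSM3 replicate 2, where Abca5, Abca7 and Abcg2 were no longer called, 10 were higher and 9 lower. Abcb9, which then passed the filter, was called higher without any 1 of the J110 libraries or without SSM3 replicate 3, and with any count allowed (log2 fold change 1.91). Library size scaling moved the middle log2 fold change over the genes tested from -0.014 to 0.16. The sign of Abcf3 changed, to 0.094 with library size scaling, 0.091 without J110 replicate 3, 0.029 without SSM3 replicate 2 and 0.21 without both. Glrx5 changed to -0.014 with 10 counts in every library, and without J110 replicate 2, SSM3 replicate 1 or SSM3 replicate 3 to -0.064, -0.0034 and -0.015. Alad changed to 0.083 with library size scaling and to 0.024 without both libraries. Hbs1l changed to -0.055 without J110 replicate 3, -0.023 without SSM3 replicate 2 and -0.11 without both. Leaving out any 1 library, or the pair named above, gave log2 fold changes from -0.28 to 0.21 for Abcf3, -0.064 to 0.074 for Glrx5, -0.17 to 0.024 for Alad and -0.11 to 0.12 for Hbs1l. The cause was not tested, and none of these genes passed the test in any of these fits. With the replicate number as a block 9481 genes were called and no member's call changed. The correlation of deviations between libraries of the same number lay from 0.0118 to 0.0268. Between libraries of unlike number it lay from -0.0207 to 0.00756. Whether libraries of the same number share more than the number was not tested. At this depth, members with 3 counts or fewer per library could not be compared.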
